A study of Mus musculus with 15 samples.

Results

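Genes by which the kidney concentrates urine were followed through 4 treatment groups of mice. The set was named by function and held 4 water channels (Aqp1, Aqp2, Aqp3, Aqp4), the vasopressin receptor Avpr2, the urea carrier Slc14a2, the osmolyte carriers Slc5a3 and Slc6a12, aldose reductase (Akr1b3) and the transcription factor Nfat5. All 10 symbols were found among the 23866 gene rows of the count table, and all 10 passed the filter on low counts, as did 16105 genes in all. Whole kidneys of male C57BL/6 mice were sequenced, and the sources used here state neither the age of the mice nor the doses of CCl4 and ethanol. Mice of the olive oil group (3 libraries) had 6 weeks of intraperitoneal olive oil, the vehicle. The CCl4 group (4 libraries) had 6 weeks of intraperitoneal carbon tetrachloride, a solvent toxic to liver and kidney, and replicates 3 and 4 had another 4 weeks at a halved dose. The EtOH group (4 libraries) had 6 weeks of olive oil and then ethanol for 4 weeks. The CCl4+EtOH group (3 libraries) had 6 weeks of CCl4 and then ethanol for 4 weeks, and the titles of these samples name CCl4 a further time before ethanol. EtOH and the 4 added weeks cannot be told apart in comparisons with olive oil.

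The kidney concentrates urine by drawing water out of the collecting duct into a salty and urea-rich medulla. Vasopressin acts on its receptor Avpr2 in principal cells and moves Aqp2 into the apical membrane, while Aqp3 and Aqp4 let the water out at the basolateral side. Aqp1 carries water in the proximal tubule and the descending thin limb, and Slc14a2 encodes the urea transporters of the inner medullary collecting duct and the thin limb. Medullary cells balance the high salt around them with organic osmolytes: myo-inositol taken up by Slc5a3, betaine taken up by Slc6a12 and sorbitol made by Akr1b3. Nfat5 is the transcription factor that responds to hypertonicity and is known to induce these 3 osmolyte genes through the tonicity-responsive element (TonE) in DNA, as well as Slc14a2 and Aqp2.

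Promoter windows of 250 bases before the annotated start were read from RefSeq (GRCm38.p6) for 7 of the 10 genes. Aqp4, Slc14a2 and Akr1b3 were not matched. The windows were searched on both strands for TonE, for TGGAAA, with which TonE begins, for TGACG, the short form of the cAMP response element through which vasopressin acts, and for the full element TGACGTCA, which contains TGACG. The promoters shown were chosen as those of the osmolyte carrier with a TonE match, the water channel downstream of vasopressin, the other osmolyte carrier, and Aqp1, Aqp3 and Nfat5, which changed in each comparison of CCl4+EtOH with another group. Capitals mark the matches to TonE and to TGACG or its reverse complement CGTCA.
Slc6a12: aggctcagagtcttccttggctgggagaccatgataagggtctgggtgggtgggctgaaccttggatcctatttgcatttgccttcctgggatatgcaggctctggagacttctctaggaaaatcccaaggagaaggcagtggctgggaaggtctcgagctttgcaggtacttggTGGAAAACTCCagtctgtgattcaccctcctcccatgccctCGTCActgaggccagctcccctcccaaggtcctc
Aqp2: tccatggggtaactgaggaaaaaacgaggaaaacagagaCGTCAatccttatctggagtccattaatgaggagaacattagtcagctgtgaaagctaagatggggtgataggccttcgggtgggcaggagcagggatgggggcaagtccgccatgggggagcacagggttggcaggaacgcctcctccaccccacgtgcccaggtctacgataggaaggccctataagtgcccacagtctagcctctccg
Slc5a3: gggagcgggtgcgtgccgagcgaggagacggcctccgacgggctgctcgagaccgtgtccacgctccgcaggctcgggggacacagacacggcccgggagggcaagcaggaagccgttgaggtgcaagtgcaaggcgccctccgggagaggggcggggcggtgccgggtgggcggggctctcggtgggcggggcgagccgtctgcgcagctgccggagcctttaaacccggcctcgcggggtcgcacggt
Aqp1: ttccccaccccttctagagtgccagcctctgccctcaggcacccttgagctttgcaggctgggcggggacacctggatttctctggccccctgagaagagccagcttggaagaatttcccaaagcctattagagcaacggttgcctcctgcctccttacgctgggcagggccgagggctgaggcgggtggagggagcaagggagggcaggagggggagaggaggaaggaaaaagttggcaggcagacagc
Aqp3: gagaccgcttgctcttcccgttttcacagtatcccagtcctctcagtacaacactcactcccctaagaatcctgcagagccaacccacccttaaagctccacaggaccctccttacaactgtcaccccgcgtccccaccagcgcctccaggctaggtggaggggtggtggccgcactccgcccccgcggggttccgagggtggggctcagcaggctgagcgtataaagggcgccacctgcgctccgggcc
Nfat5: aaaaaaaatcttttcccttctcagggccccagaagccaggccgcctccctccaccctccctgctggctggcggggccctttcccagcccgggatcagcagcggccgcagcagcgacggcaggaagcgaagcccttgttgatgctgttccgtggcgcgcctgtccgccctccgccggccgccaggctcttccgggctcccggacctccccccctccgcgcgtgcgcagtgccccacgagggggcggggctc
These windows lie at chr6:121342324-121342573 (Slc6a12, plus strand), chr15:99578806-99579055 (Aqp2, plus strand), chr16:92058072-92058321 (Slc5a3, plus strand), chr6:55336049-55336298 (Aqp1, plus strand), chr4:41098184-41098433 (Aqp3, minus strand) and chr8:107293220-107293469 (Nfat5, plus strand). The table lists 5 starts for Slc6a12, and the window shown was picked because it held the match, while the other 4 windows held none of the motifs. TonE in it begins 75 bases before the start, and CGTCA 34 bases before the start. In Aqp2 the CGTCA match begins 211 bases before the start. TonE occurred in 4.31% of 32851 windows of this length, TGGAAA in 18.6%, TGACG in 17.8% and TGACGTCA in 1.55%. None of these letters were found in the windows of Aqp1, Aqp3, Avpr2, Slc5a3 and Nfat5. A match is a description of the letters only.

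In olive oil kidneys the levels differed widely between the genes. Levels were expressed as CPM, counts relative to the scaled library size, and for comparisons between genes as CPM per kilobase of transcript. Aqp1 led with 412 ± 26.4 CPM per kilobase (SD, n = 3), followed by Aqp2 at 79.2 ± 19.1 and Aqp3 at 53.2 ± 7.36. Slc5a3 stood at 21.7 ± 3.13, Slc14a2 at 16.7 ± 2.94 and Akr1b3 at 14.9 ± 4.27 CPM per kilobase. Aqp4 stood at 12.4 ± 5.50, Avpr2 at 11.9 ± 1.70 and Nfat5 at 10.1 ± 0.55 CPM per kilobase. From Slc14a2 down to Avpr2, neighbours in this order differed by less than their spread. Slc6a12 was lowest at 1.39 ± 0.79 CPM per kilobase. The carrier of betaine was thus measured from few counts, between 20 and 242 per library, while each library of Avpr2 held at least 258 counts.

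**Figure D1:**
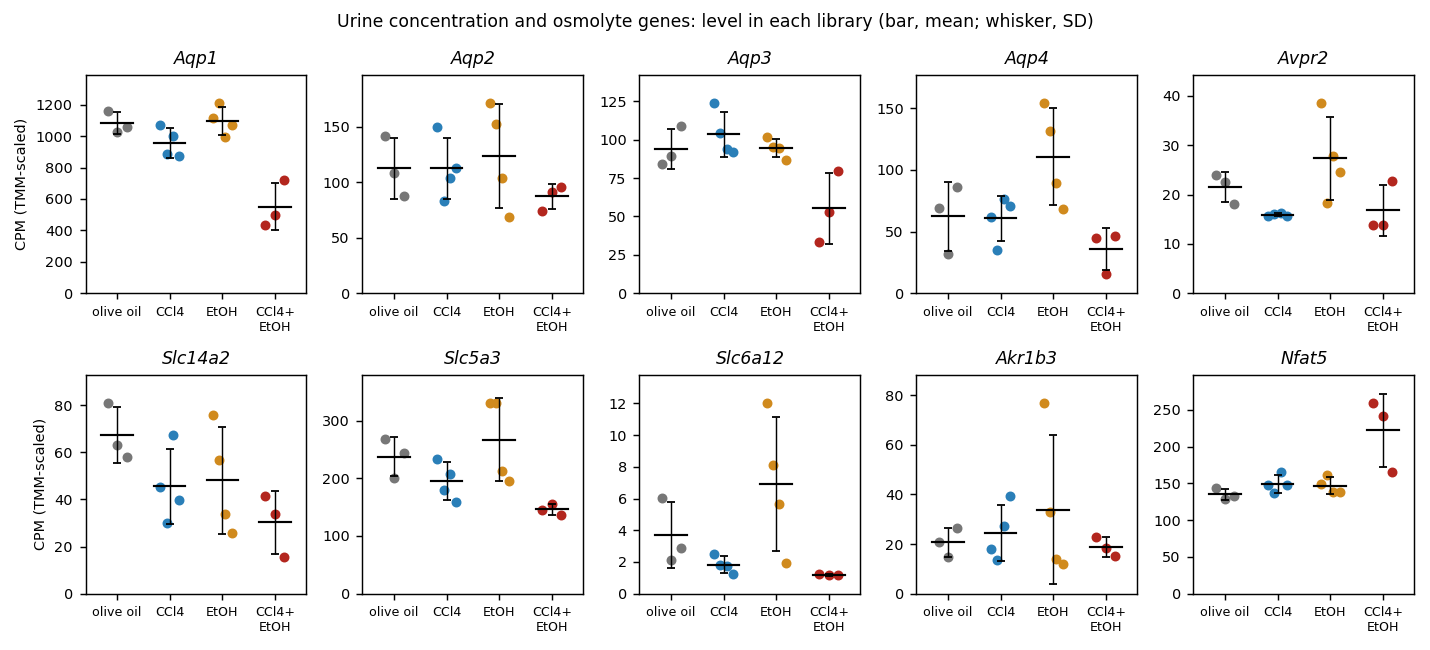
Level of each gene in every library, in CPM on a linear axis from 0, by treatment group (points, libraries; bar, mean; whisker, SD). The CCl4+EtOH libraries lie below the other groups for Aqp1, Aqp3 and Slc5a3, and above them for Nfat5, while the EtOH libraries of Aqp4, Slc6a12 and Akr1b3 are spread widely.

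Order of the group means was similar for many of the genes. CCl4+EtOH had the lowest mean for 8 of the 10 genes, EtOH had the highest for 7, and Nfat5 alone had its highest mean in CCl4+EtOH. Neighbours in that order overlapped between libraries with 4 exceptions. CCl4+EtOH lay below the next group for Aqp1, Aqp3 and Slc5a3 and above it for Nfat5. Over all genes tested, 43.7% did not overlap between CCl4+EtOH and olive oil, and 35.1% between CCl4+EtOH and CCl4. The shares of all genes with these orders of means were not computed. The EtOH means include libraries with adrenal transcripts, described below.

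Library totals ran from 16.36 to 23.55 M counts. Markers of the labelled tissue were present in each library: the 10 proximal tubule markers summed to between 5671 and 19610 CPM and the 12 principal cell markers to between 389 and 722 CPM, with none of the principal cell markers at 0. Some libraries stood apart. EtOH replicates 1, 2 and 3 held 874, 755 and 1201 CPM of the 10 adrenal markers, against 9.19 in EtOH replicate 4, 27.0 in CCl4 replicate 3 and at most 8.35 elsewhere. Within the CCl4+EtOH group, replicates 1 and 2 held 5911 and 5671 CPM of proximal tubule markers and replicate 3 held 16229, against at least 15157 in the other groups. The 5 tubule injury markers summed to 36982, 26893 and 4619 CPM in these replicates and to at most 1325 elsewhere. Macrophage markers summed to 423, 471 and 309 CPM in them and to at most 250.5 CPM elsewhere. Erythroid markers summed to 795, 442 and 5838 CPM, against 1658 to 3216 CPM elsewhere, and adipocyte markers to 112, 132 and 549 CPM, against 43.9 to 689 CPM elsewhere. The part of macrophage, erythroid and adipocyte transcripts in the results was not tested. In whole kidney RNA, fewer cells of a type and less RNA per cell cannot be told apart.

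CCl4 and EtOH together were set against olive oil to ask what both agents did to the concentrating genes. Of the 10 genes, 1 rose and 4 fell in edgeR's quasi-likelihood test with Benjamini-Hochberg adjustment over all genes at a threshold of 0.05. The background was high, since 35.4% of all genes tested were called, 18.9% higher and 16.6% lower. The genes' median log2 change was -0.73, against 0.02 over all genes tested. In 6 of the 10 genes the libraries of both groups did not overlap, 5 lower and 1 higher, against 43.7% of all genes, 20.8% lower and 22.9% higher.

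Among the water channels, the proximal and thin limb channel Aqp1 and the basolateral collecting duct channel Aqp3 fell. Aqp1 stood at 1161, 1029 and 1059 CPM after olive oil and at 432, 498 and 718 CPM after CCl4+EtOH. In the CCl4 group it stood at 1072, 883, 998 and 876 CPM, and in the EtOH group at 1115, 1209.7, 996 and 1073 CPM. Each CCl4+EtOH library was below every other library, and replicate 3 was the nearest to them. The change from olive oil was -0.98 ± 0.17 on the log2 scale (SE), a 1.97-fold lower level, with an adjusted p of 0.00087 in edgeR. Aqp1 is also a gene of the proximal tubule, whose 10 markers had a median log2 change of -0.92 in this comparison with 4 lower, against 16.6% of all genes called lower, and their part in the result was not tested.

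Aqp3 stood at 83.8, 89.3 and 109 CPM after olive oil and at 33.4, 52.8 and 79.7 CPM after CCl4+EtOH. It stood at 124, 104, 94.0 and 91.7 CPM after CCl4 and at 102, 94.96, 94.2 and 87.0 CPM after EtOH. The groups did not overlap, but CCl4+EtOH replicate 3 was just below the lowest olive oil library. Aqp3 fell by 0.76 on the log2 scale (SE 0.23, adjusted p = 0.0197 in edgeR). Without CCl4+EtOH replicate 1 the change was -0.49 (adjusted p = 0.053), and without replicate 3 it was -1.13 (adjusted p = 0.000217).

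Aqp2, the vasopressin-regulated channel, stood at 141, 108 and 87.5 CPM after olive oil and at 74.4, 91.1 and 95.8 CPM after CCl4+EtOH. The groups overlapped, and the log2 change of -0.37 ± 0.30 (SE) had a 95% interval from -1.01 to 0.28 and did not pass (adjusted p = 0.361 in edgeR). Aqp4 stood at 69.5, 31.9 and 86.1 CPM after olive oil and at 44.8, 15.9 and 46.8 CPM after CCl4+EtOH. Its low olive oil library, replicate 2, lay within the other group, and the change of -0.80 ± 0.46 did not pass (adjusted p = 0.195). A difference in Aqp2 or Aqp4 of the size seen in Aqp1 lies inside both intervals, that of Aqp4 running from -1.80 to 0.20.

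In the principal cell list, in which Aqp2, Aqp3 and Avpr2 were counted, 2 of 12 genes fell, Aqp3 and Tmem45b, and 1 rose, Stc1, against 16.6% of all genes lower and 18.9% higher. The sodium pump regulator Fxyd4 was at -0.11 ± 0.20 and Hsd11b2, which shields the mineralocorticoid receptor from cortisol-like steroids, at -0.19 ± 0.19 on the log2 scale (SE), neither past the threshold. The list's median change was -0.16. Its summed level was 389 to 571 CPM after CCl4+EtOH and 559 to 607 CPM after olive oil, so the ranges overlapped.

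Avpr2, the receptor, stood at 23.9, 22.5 and 18.05 CPM after olive oil and at 13.7, 13.9 and 22.8 CPM after CCl4+EtOH. Replicate 3 of CCl4+EtOH lay among the olive oil libraries and the other replicates lay below them. The log2 change of -0.36 ± 0.24 (SE) did not pass (adjusted p = 0.259 in edgeR). Without replicate 3 it was -0.64 (adjusted p = 0.0326). Counts of Avpr2 are uncertain, because its exons overlap those of Arhgap4 on the other strand, by 1295 bases in the longest stretch. The use of strand in counting is not given in the sources used here. Arhgap4 stood at 10.8 ± 1.37 CPM after olive oil and at 13.5 ± 2.69 CPM after CCl4+EtOH (SD, n = 3 each).

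The urea carrier Slc14a2 stood at 80.7, 63.2 and 58.1 CPM after olive oil and at 41.6, 33.6 and 15.6 CPM after CCl4+EtOH. It stood at 45.3, 29.9, 67.3 and 39.8 CPM after CCl4 and at 75.9, 56.8, 33.9 and 25.9 CPM after EtOH. All CCl4+EtOH libraries were below the olive oil libraries, and the lowest was replicate 3, the library that was nearest to olive oil for Aqp1 and Aqp3. The log2 change was -1.15 ± 0.42 (SE), with an adjusted p of 0.0502 in edgeR, just outside the threshold. DESeq2 gave an adjusted p of 0.0108 and limma-voom 0.0645 for the same comparison.

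Of the osmolyte genes, both carriers fell while aldose reductase did not pass. Slc5a3, the inositol carrier, stood at 268, 201 and 243 CPM after olive oil and at 146, 156 and 137 CPM after CCl4+EtOH. In the CCl4 group it stood at 233, 179, 208 and 158 CPM, and in the EtOH group at 329.8, 329.7, 213 and 196 CPM. The CCl4+EtOH libraries were close together and below all others. Slc5a3 fell by 0.70 on the log2 scale (SE 0.20, adjusted p = 0.0168 in edgeR). Without olive oil replicate 1 the adjusted p was 0.0609, and without CCl4+EtOH replicate 1 it was 0.0553. Exons of Slc5a3 overlap those of Mrps6 on the same strand, by 159 bases in the longest stretch. Mrps6, a mitochondrial ribosome protein, fell by 0.50 (SE 0.17), and how reads of the shared bases were assigned is not given in the sources used here.

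Slc6a12, the betaine carrier whose promoter held the TonE match, stood at 6.04, 2.12 and 2.87 CPM after olive oil and at 1.27, 1.17 and 1.17 CPM after CCl4+EtOH. It stood at 2.49, 1.83, 1.77 and 1.22 CPM after CCl4 and at 12.0, 8.11, 5.64 and 1.97 CPM after EtOH. The CCl4+EtOH libraries were below the olive oil and EtOH libraries and overlapped those of CCl4. Against olive oil Slc6a12 fell by 1.60 on the log2 scale (SE 0.54, adjusted p = 0.0353 in edgeR), a 3.02-fold lower level. Olive oil replicate 1 held the highest level of its group, and without it the change was -1.05 (adjusted p = 0.163). The call was also lost without any 1 of the CCl4+EtOH libraries (adjusted p from 0.0662 to 0.098) and in limma-voom (adjusted p = 0.181).

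Akr1b3 stood at 21, 14.6 and 26.4 CPM after olive oil and at 22.9, 18.4 and 15.1 CPM after CCl4+EtOH. Both groups covered the same range, and the log2 change of -0.13 ± 0.60 (SE) had a 95% interval from -1.44 to 1.18 (adjusted p = 0.883 in edgeR). Akr1b3 has close relatives among the aldo-keto reductases, and the counts do not show how reads common to them were assigned.

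Nfat5 rose, while of its known targets in the set Slc5a3 and Slc6a12 fell, and Akr1b3, Slc14a2 and Aqp2 did not pass. Nfat5 stood at 143, 129 and 132 CPM after olive oil and at 258.8, 242 and 166 CPM after CCl4+EtOH. In the CCl4 group it stood at 148, 137, 165 and 148 CPM, and in the EtOH group at 149.5, 162, 138 and 138 CPM. All CCl4+EtOH libraries were above all other libraries, replicates 1 and 2 by a wide margin and replicate 3 just above the CCl4 library at 165 CPM. Nfat5 rose by 0.72 ± 0.14 on the log2 scale (SE), a 1.65-fold higher level (adjusted p = 0.00165 in edgeR). With replicate 3 left out the change was 0.89 (adjusted p = 5.23e-06). These are transcript levels, and neither the amount nor the location of the NFAT5 protein was measured.

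**Figure D2:**
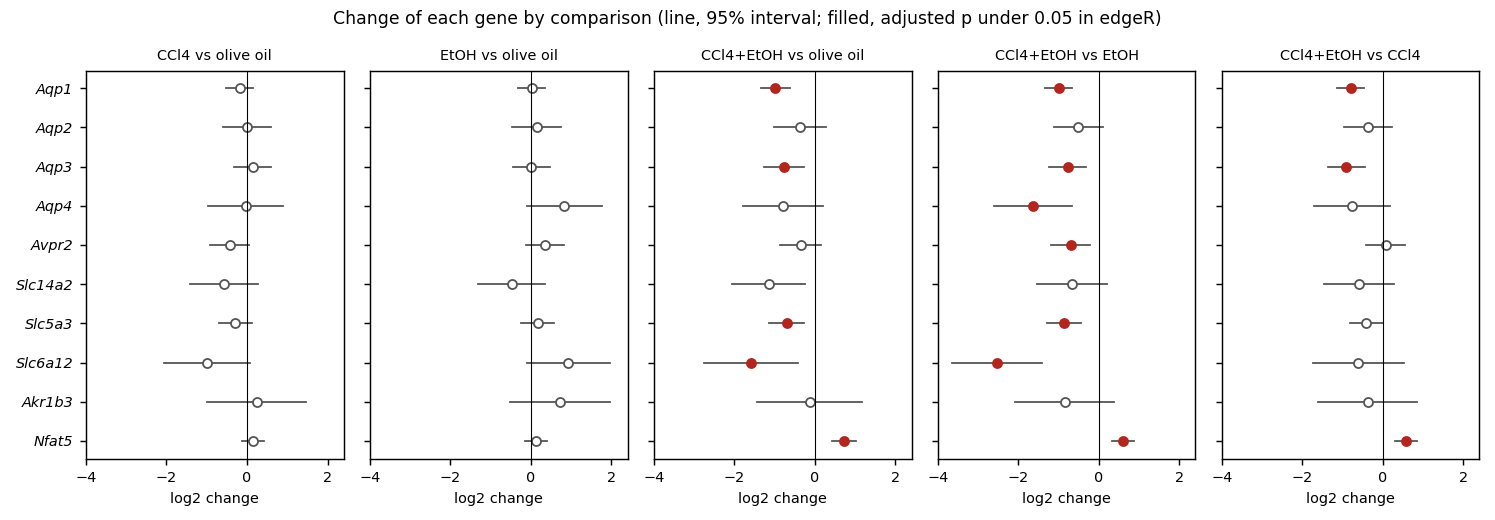
Log2 change of each gene in 5 comparisons (horizontal axis; point, estimate; line, 95% interval; filled, adjusted p under 0.05 in edgeR). No point is filled for CCl4 or EtOH alone, and Aqp1, Aqp3 and Nfat5 are filled in all 3 comparisons with CCl4+EtOH.

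CCl4+EtOH against CCl4 asks what ethanol did in mice that had received CCl4, and the CCl4 libraries were at background for adrenal markers apart from a low level in replicate 3. Of the 10 genes 1 rose and 2 fell, against 34.8% of all genes tested, 18.7% higher and 16.2% lower. Aqp1 changed by -0.80 ± 0.16 (adjusted p = 0.00192), Aqp3 by -0.90 ± 0.22 (adjusted p = 0.00644) and Nfat5 by 0.57 ± 0.13 (adjusted p = 0.00383) on the log2 scale (SE, edgeR). These genes and Slc5a3 did not overlap between the groups, 4 of 10 against 35.1% of all genes. Slc5a3 was at -0.41 (adjusted p = 0.109), where its lowest CCl4 library, replicate 4 at 158 CPM, was next to the highest CCl4+EtOH library at 156 CPM.

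The same 3 genes of the 10 passed with each CCl4 schedule taken alone. Over all genes, 3753 of 16442 passed with the libraries of 10 weeks and 4294 of 16442 with those of 6 weeks. The CCl4 libraries of 10 weeks match CCl4+EtOH in total time but had 4 weeks of CCl4 at a halved dose. The sources of CCl4+EtOH name no such weeks, though its titles name CCl4 again. The libraries of 6 weeks lack the added time, so ethanol, time and CCl4 exposure cannot be told apart. With the libraries of 10 weeks Aqp1 was at -0.77 (adjusted p = 0.013), Aqp3 at -0.75 (adjusted p = 0.0478) and Nfat5 at 0.51 (adjusted p = 0.035). With the libraries of 6 weeks Aqp1 was at -0.83 (adjusted p = 0.0082), Aqp3 at -1.04 (adjusted p = 0.0103) and Nfat5 at 0.64 (adjusted p = 0.0113). Slc6a12 was at -0.61 (adjusted p = 0.396, 95% interval -1.74 to 0.53), Slc14a2 at -0.59 (95% interval -1.45 to 0.28) and Avpr2 at 0.08 (95% interval -0.40 to 0.56) in the comparison with all CCl4 libraries. Aqp2 was at -0.37 (adjusted p = 0.331), Aqp4 at -0.76 (adjusted p = 0.193) and Akr1b3 at -0.38 (adjusted p = 0.642).

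CCl4+EtOH against EtOH asks what CCl4 did in mice that received ethanol. Of the 10 genes 1 rose and 6 fell, against 34.2% of all genes tested, 18.1% higher and 16.2% lower. In 6 of the 10 the libraries did not overlap, against 32.4% of all genes. The largest change was that of Slc6a12, which fell by 2.53 on the log2 scale (SE 0.52, adjusted p = 0.00299 in edgeR), a 5.76-fold lower level. Aqp4 stood at 154, 131, 89.3 and 68.1 CPM after EtOH, all above its CCl4+EtOH libraries, and fell by 1.63 (SE 0.45, adjusted p = 0.0143). Aqp1 fell by 0.999 (SE 0.16), Slc5a3 by 0.87 (SE 0.19) and Aqp3 by 0.77 (SE 0.22). Avpr2, which fell by 0.70 (SE 0.22, adjusted p = 0.0272), stood at 38.5, 18.3, 27.8 and 24.6 CPM after EtOH and so overlapped the CCl4+EtOH libraries. Nfat5 rose by 0.60 ± 0.13 (adjusted p = 0.00325). Aqp2 at -0.51 (adjusted p = 0.179), Slc14a2 at -0.67 (adjusted p = 0.212) and Akr1b3 at -0.85 (adjusted p = 0.267) did not pass.

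The EtOH libraries also differed among themselves in these genes. EtOH replicate 4, the library at background for adrenal markers, was the lowest of its group for 8 of the 10 genes, and replicate 1 was the highest for 8. Slc6a12 was at 12.0, 8.11 and 5.64 CPM in the libraries with adrenal transcripts and at 1.97 CPM in replicate 4, and Slc5a3 at 329.8, 329.7, 213 and 196 CPM in the same order. Replicate 3, which held the most adrenal transcripts, was nearer to replicate 2 than to replicate 4 for Slc6a12. It stood next to replicate 4 for Akr1b3, at 13.98 and 11.8 CPM, and for Slc14a2, at 33.9 and 25.9 CPM. Principal cell markers, Aqp2, Aqp3 and Avpr2 among them, summed to 722, 619, 603 and 581 CPM in replicates 1 to 4, and their part was not tested. When replicate 4 was the only EtOH library, its group had no spread of its own, so only the changes are given. Slc6a12 was then at -0.72, Aqp4 at -0.94 and Slc5a3 at -0.44, while Aqp1 was at -0.98 and Nfat5 at 0.67. A further fit took the mean log2 CPM of the adrenal markers as a covariate. In it 1 of the 10 genes passed, Aqp1 at -0.97 (adjusted p = 0.0326 in edgeR), and 1314 of 16105 over all genes. With 1 EtOH library at background, adrenal transcripts and differences between mice cannot be told apart.

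**Figure D3:**
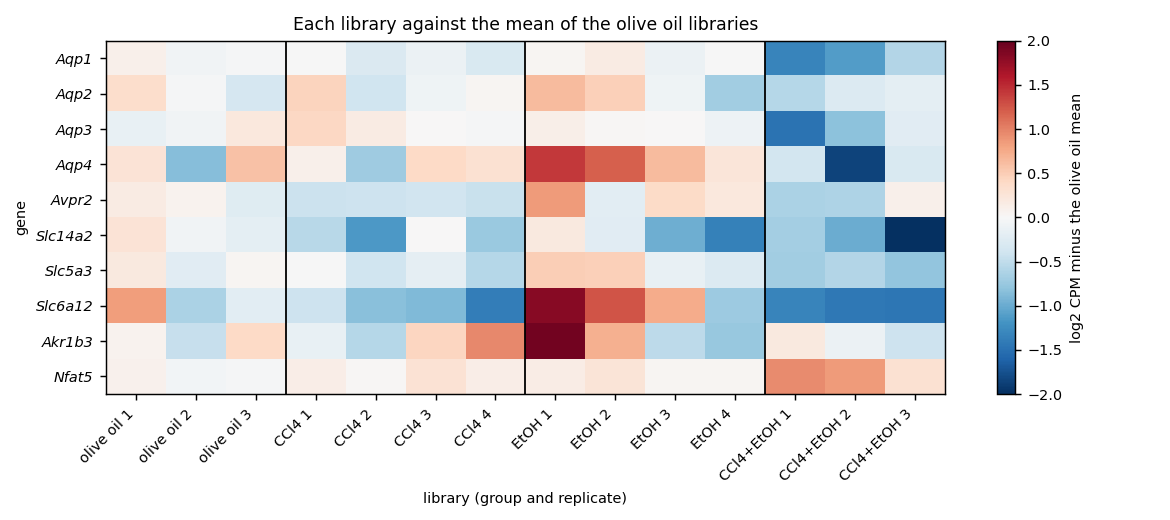
Log2 CPM of each gene in each library minus the mean of the olive oil libraries (colour scale from -2 to 2; black lines separate the groups). Nfat5 is raised in the CCl4+EtOH columns while most other genes are lowered, and the EtOH columns differ among themselves for Slc6a12 and Akr1b3, with replicate 1 highest and replicate 4 lowest.

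Neither agent alone gave a call among the concentrating genes. In CCl4 against olive oil 0 of the 10 genes passed, and edgeR called 0% of all genes tested, while 3.97% had an unadjusted p under 0.05. DESeq2 called 1 gene and limma-voom 0, none of them a member of the set. The set had a median log2 change of -0.11. Avpr2 stood at 15.8, 16.0, 16.3 and 15.7 CPM after CCl4, the smallest relative spread of the 10 genes in any group, and each value was below the olive oil libraries. Its change was -0.43 ± 0.22 (SE), and 1 of 10 genes without overlap, lower, compares with 7.22% of all genes, or 3.74% for lower. Slc6a12 was at -0.99 ± 0.49 with a 95% interval from -2.05 to 0.07. Intervals for the water channels were narrower for Aqp1, from -0.51 to 0.15, and Aqp3, from -0.32 to 0.60, than for Aqp4, from -0.96 to 0.89. Slc14a2 was at -0.56 ± 0.39, Slc5a3 at -0.29 ± 0.19, Nfat5 at 0.15 ± 0.13 and Aqp2 at 0.00135 ± 0.28. Within the CCl4 group, Akr1b3 was at 18.1 and 13.4 CPM after 6 weeks and at 27.2 and 39.3 CPM after 10 weeks. With either schedule alone 0 genes of the set passed, and 0 of 16442 over all genes.

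In EtOH against olive oil 0 of the 10 genes passed, against 0.168% of all genes tested in edgeR, while 10.4% had an unadjusted p under 0.05. The set had a median log2 change of 0.16. The largest estimates were those of Slc6a12 at 0.93 ± 0.48 (adjusted p = 0.545), Aqp4 at 0.83 ± 0.43 (adjusted p = 0.554) and Akr1b3 at 0.72 ± 0.57 (adjusted p = 0.756). Akr1b3 was spread most, at 76.6, 33.0, 13.98 and 11.8 CPM, with replicate 1 the highest. Akr1b7, a relative of Akr1b3 that is abundant in the adrenal gland, stood at 74.2, 72.0, 141 and 2.54 CPM in the same libraries, and its part in the counts of Akr1b3 was not tested. Aqp2 stood at 171, 153, 103 and 68.3 CPM. When EtOH replicate 4 stood alone for its group, Slc6a12 was at -0.89 and Akr1b3 at -0.80, below olive oil. The estimates for Aqp1, at 0.02 (95% interval -0.31 to 0.35), and Aqp3, at 0.01 (95% interval -0.45 to 0.47), were near 0. Slc14a2 was at -0.48, Avpr2 at 0.35, Slc5a3 at 0.17, Aqp2 at 0.14 and Nfat5 at 0.12, with none past the threshold.

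Whether the change with CCl4 differed between mice with and without ethanol was tested as an interaction. Of the 10 genes 1 passed, against 9.12% of all genes tested, 5.49% higher and 3.63% lower. Aqp1 had an interaction of -0.82 ± 0.22 on the log2 scale (SE, adjusted p = 0.037 in edgeR), made of a change of -0.18 without ethanol and of -0.999 with it. Aqp3 had -0.91 ± 0.30 (adjusted p = 0.0724) and Nfat5 0.45 ± 0.18 (adjusted p = 0.119), with changes of 0.14 and 0.15 without ethanol. None of the other interactions passed, with Aqp4 at -1.59, Slc6a12 at -1.53, Akr1b3 at -1.10, Slc5a3 at -0.58, Aqp2 at -0.51, Avpr2 at -0.27 and Slc14a2 at -0.11. Leaving out CCl4+EtOH replicate 3 gave 3 genes, with Aqp1 at -1.06, Aqp3 at -1.27 and Nfat5 at 0.62, and leaving out any other library gave 0. Over all genes, the first of these fits called 4881 of 16398, and the others called 292 to 1197. The EtOH libraries with adrenal transcripts enter this contrast. With the adrenal covariate 0 of the 10 genes passed, and 6 of 16105 over all genes. A fit with EtOH replicate 4 alone leaves 1 library in that group, so its calls are not given.

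Other genes of water, urea and osmolyte handling were followed in lists, again with CCl4+EtOH against olive oil and its background of 35.4%. Of the other aquaporins 5 of 8 were tested and 2 fell. Aqp11, an intracellular channel of the proximal tubule, stood at 35.1, 45.2 and 46.0 CPM after olive oil and at 11.1, 12.3 and 30.4 CPM after CCl4+EtOH, and fell by 1.23 on the log2 scale (SE 0.28, adjusted p = 0.00506 in edgeR). Aqp7, a channel for glycerol and water, fell by 0.40 (SE 0.15). The low libraries of Aqp11 were replicates 1 and 2, as for Aqp1, and replicate 3 was between them and the olive oil libraries.

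In vasopressin signalling 21 of 23 genes were tested, 3 rose and 3 fell, with a median of 0.08. Edn1, endothelin, which is known to oppose vasopressin in the collecting duct, stood at 1.70, 1.90 and 2.22 CPM after olive oil and at 37.2, 36.6 and 5.87 CPM after CCl4+EtOH, and rose by 3.77 ± 0.53 (adjusted p = 0.000364 in edgeR). Of the prostaglandin E2 receptors in the list, Ptger4 rose by 1.01 ± 0.20, Ptger3, a receptor of the thick ascending limb, fell by 0.82 (SE 0.18), and Ptger1 was at -0.25 ± 0.13 and did not pass. Creb1, the factor that binds the cAMP response element, rose by 0.49 ± 0.11, and the adenylate cyclase Adcy9 fell by 0.57 (SE 0.13). Ptger4 stood at 4.11, 5.12 and 4.01 CPM after olive oil and at 8.90, 9.89 and 7.90 CPM after CCl4+EtOH, so for this gene replicate 3 was close to the other replicates.

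Of 16 further genes of NFAT5 and osmolyte metabolism 2 rose and 4 fell, with a median of -0.02. Sord, the dehydrogenase that clears the sorbitol made by Akr1b3, stood at 1348, 1537 and 1669.9 CPM after olive oil and at 473, 556 and 1099.8 CPM after CCl4+EtOH, and fell by 1.10 on the log2 scale (SE 0.24, adjusted p = 0.00345 in edgeR). Chdh and Aldh7a1, enzymes of betaine synthesis from choline, fell by 0.59 (SE 0.11) and 0.87 (SE 0.18). Pnpla6, which releases the osmolyte glycerophosphocholine, fell by 0.37 (SE 0.09), and Gdpd5, which breaks it down, rose by 0.61 ± 0.19. The taurine carrier Slc6a6 was at 0.10 ± 0.17 and the kinase Sgk1 at 0.09 ± 0.20, neither past the threshold. Sord, like Aqp1, is abundant in the proximal tubule.

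Of 15 genes of the countercurrent system and urea handling 1 rose and 5 fell, with a median of -0.40. The 5 markers of the thick ascending limb, some of which are in this list, summed to 4477 to 6162 CPM after CCl4+EtOH and 5957 to 7858 CPM after olive oil. The salt carrier of the thick ascending limb, Slc12a1, stood at 1933, 1518 and 1627 CPM after olive oil and at 774, 920.4 and 1204 CPM after CCl4+EtOH, and fell by 0.81 (SE 0.21, adjusted p = 0.0083 in edgeR). The chloride channel subunit Bsnd fell by 0.70 (SE 0.16), the potassium channel Kcnj1 by 0.57 (SE 0.16) and the sodium pump subunit Fxyd2 by 0.63 (SE 0.16). Umod, the urinary protein made by that segment, was at -0.28 ± 0.19 and did not pass (adjusted p = 0.278). Arg2, an arginase that makes urea, rose by 1.77 ± 0.38. Slc14a1, the urea carrier of the descending vasa recta, stood at 6.22, 5.87 and 5.37 CPM after olive oil and at 3.62, 3.47 and 2.46 CPM after CCl4+EtOH, a change of -0.87 ± 0.36 that did not pass (adjusted p = 0.0725). With CCl4 or EtOH alone against olive oil 0 genes of these 4 lists passed.

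**Figure D4:**
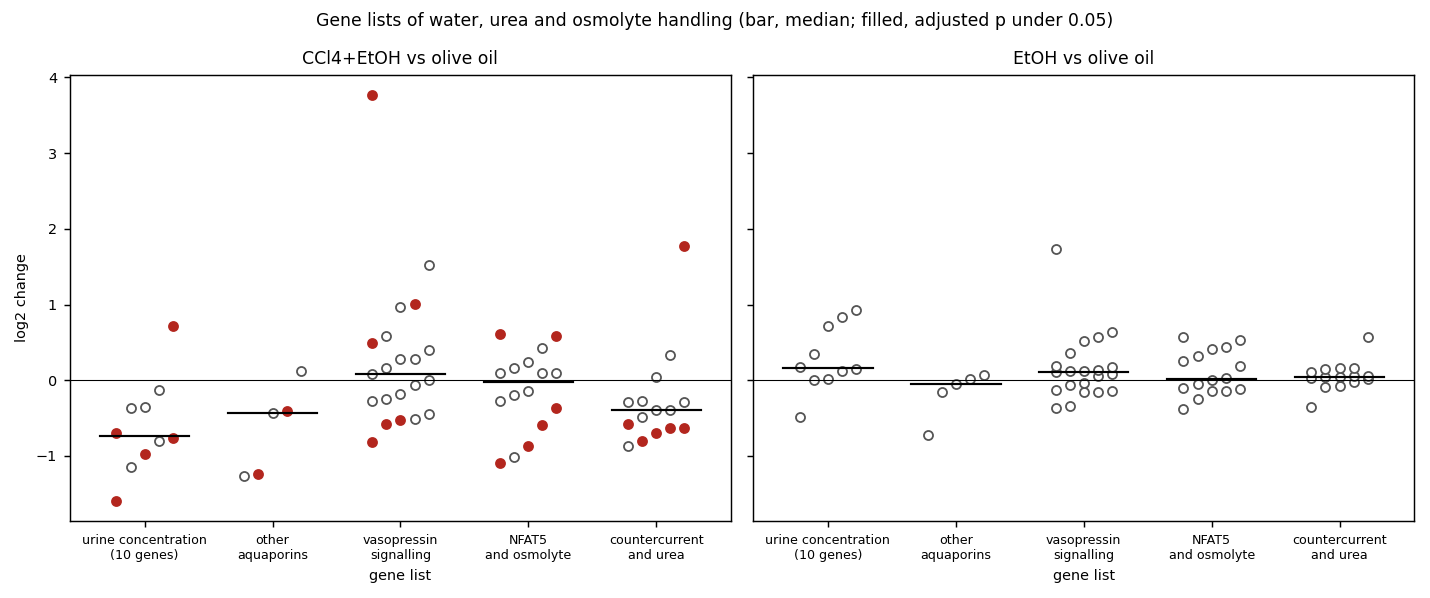
Log2 change of every tested gene of the set and of 4 related lists (vertical axis; point, gene; bar, median of the list; filled, adjusted p under 0.05 in edgeR) for CCl4+EtOH (left) and EtOH (right) against olive oil. Filled points lie on both sides of 0 on the left, with medians of -0.73 for the set and -0.40 for the countercurrent list, and none are filled on the right.

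Genes with the most similar pattern were found for each member by the root mean square difference of centred log2 CPM over 14 libraries among 13234 candidates. The search uses the same libraries as the comparisons and describes them. Slc14a2 was nearest to Slc14a1, its neighbour in the urea carrier family, at a difference of 0.25 log2 units, followed by Scel at 0.31. Slc5a3 had Sptb, a spectrin chain, among its nearest at 0.20, and Aqp3 had among its nearest Rhcg, an ammonia channel of the collecting duct, at 0.12. Aqp1 was nearest to Ngef, Ank2 and Cyfip2, each at 0.12, and Nfat5 to Itgb1 at 0.08, Rps6ka3 at 0.09 and Tmem123 at 0.10. Slc6a12, with few counts, had its nearest gene at 0.58, Rph3a. Between members, the closest pair was Aqp1 and Aqp3 with a difference of 0.22, and Slc5a3 was at 0.28 from Aqp1 and 0.29 from Aqp2.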

How the data were processed

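RNA came from frozen kidneys, and libraries followed an Illumina procedure, per the labels' protocols. Raw read counts were deposited for each gene symbol and mouse. The aligner GSNAP and the build mm9 come from the submitters' processing notes, which give no versions. Which program counted reads, with which annotation and strand setting, is not given in the sources used here. Of 15 samples, 14 had a column, and an olive oil sample (replicate 4) is not analysed here. Of 23893 rows, 27 carried a date in place of a symbol (0.168% to 0.209% of counts) and were left out. Libraries of a group differed by more than sampling noise, with a chi-square per gene of 10.28 or higher. The labels give each sample its own number, so the spread tested is that between samples.

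The 14 libraries in 4 groups were fitted together in edgeR 4.0.16 (R 4.3.3; filterByExpr by group, TMM scaling, robust quasi-likelihood F test), adjusted by Benjamini-Hochberg over 16105 genes at a threshold of 0.05. The interaction is the change of CCl4+EtOH over EtOH minus that of CCl4 over olive oil. SE was taken as the change over the root of F, and intervals have a confidence level of 0.95. CPM use TMM-scaled libraries. Levels per kilobase use the longest principal transcript of GENCODE M21, which may not be the annotation that was counted. CCl4 schedules were split in a 5-group fit. The scripts were tested on simulated data.

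The genes, lists and tests were chosen with earlier results of these data known. All members are named in every comparison. Up to 5 genes of each list, those with a mean of at least 1 CPM and the smallest p in CCl4+EtOH vs olive oil, are named, with Slc6a6, Sord, Slc14a1, Sgk1, Slc12a1, Umod, Hsd11b2 and Fxyd4 in any case, and nearest genes (from the 3 closest) of the members described. A gene that this rule named is not reported here. Arhgap4, Mrps6 and Akr1b7 were chosen after their values were seen. Similarity uses a prior count of 2 and genes with a mean of at least 1 CPM. Alternatives were other scalings (DESeq2 size factors, upper quartile), DESeq2 1.42.0, limma-voom with quality weights (limma 3.58.1), other filters on low counts, no robust estimation, only the groups compared, an adrenal marker covariate, EtOH without the libraries with adrenal transcripts, each CCl4 schedule alone and each library left out.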

Additional observations from a re-analysis of the deposited data

Results flagged for a closer look

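Aqp1 was singled out because its change with CCl4 differed between mice with and without ethanol in the test of the interaction itself, at -0.82 on the log2 scale (adjusted p = 0.037 in edgeR). Its level was 957 ± 94.7 CPM after CCl4 and 1083 ± 69.4 after olive oil, and 549 ± 150 after CCl4+EtOH and 1098 ± 89.2 after EtOH (SD, n = 3 or 4). DESeq2 gave an adjusted p of 0.00221 and limma-voom 0.000792. In edgeR the call was lost without any 1 of the libraries other than CCl4+EtOH replicate 3. It was also lost with the adrenal marker covariate. Of all genes tested, 9.12% passed this interaction, and with the covariate 6 genes did. Without any 1 of the libraries other than CCl4+EtOH replicate 3, 292 to 1197 genes passed. Among groups of 4 libraries, 0 of 20 gene and group sets had a library far from the others, where chance gives about 5%.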

How the results depend on the processing

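The count of 0 genes in CCl4 against olive oil held in all 25 alternatives, that of 0 in EtOH against olive oil in all 24, and that of 3 in CCl4+EtOH against CCl4 in all 25. In CCl4+EtOH against CCl4, calls over all genes ran from 3480 to 7396 in these alternatives. In CCl4+EtOH against olive oil the count of 5 ran from 2 to 6 with a library left out (2 without CCl4+EtOH replicate 1, and 3 without CCl4+EtOH replicate 2 or olive oil replicate 1) and from 5 to 6 otherwise. Calls over all genes were fewer in these 3 fits as well. They numbered 3904 of 16300, 3914 of 16290 and 4740 of 16414 in that order, against 5706 of 16105 with all libraries. Aqp1 (-1.22 to -0.82) and Nfat5 (0.61 to 0.89) passed in all 23 alternatives, Slc14a2 passed in 10, and Aqp3 was lost in 4, Slc5a3 in 2 and Slc6a12 in 5. In CCl4+EtOH against EtOH the count of 7 ran from 4 to 8 with a library left out, and was 1 with the adrenal marker covariate. It was 4 without CCl4+EtOH replicate 2, where 3195 of 16290 passed over all genes. Without the EtOH libraries with adrenal transcripts 1 library stood for the group, so calls of that fit are not given. The interaction count of 1 ran from 0 to 3 with a library left out, was 2 in DESeq2 and 3 in limma-voom, and was 0 with the covariate. Over all genes, EtOH against olive oil gave 27 calls in edgeR, 350 in DESeq2 and 223 in limma-voom, CCl4+EtOH against EtOH gave 5514, and 1314 with the covariate, and the interaction gave 1468, 2519 in DESeq2, 4810 in limma-voom and 6 with the covariate. Apart from fits with fewer libraries, the cause was not tested. No paired analysis was possible because the labels give the groups no shared replicate numbers. Slc6a12 had the fewest counts of the 10 genes, 88 over the CCl4+EtOH libraries.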

Other observations

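Some thin limb markers moved opposite to Aqp1 in CCl4+EtOH against olive oil. Of these 7 genes, which include Aqp1 and Slc14a2, 3 rose and 2 fell, against 18.9% of all genes called higher and 16.6% lower. Epha7, an ephrin receptor, rose by 1.58, Bst1, a membrane-bound ectoenzyme, by 1.19 and Fst, follistatin, by 0.86 on the log2 scale, while Aqp1 fell by 0.98. Bst1 ran from 10.4 to 40.8 CPM after CCl4+EtOH and from 10.6 to 15.4 CPM after olive oil, so its groups overlapped. The summed level of the list, most of it Aqp1, was 603 to 830 CPM after CCl4+EtOH and 1213 to 1387 CPM after olive oil.

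In CCl4+EtOH against CCl4, where the adrenal markers were low on both sides, 8 of the 16 further osmolyte genes passed, 3 higher and 5 lower, and 7 of the 15 countercurrent and urea genes passed, 1 higher and 6 lower, against 34.8% of all genes, 18.7% higher and 16.2% lower. Arg2 differed most among the latter, at 9.59, 5.97, 7.74 and 5.53 CPM after CCl4 and 49.1, 55.8 and 16.7 CPM after CCl4+EtOH, with a change of 2.49 ± 0.36 on the log2 scale (adjusted p = 0.000388 in edgeR).

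In the interaction of CCl4 and EtOH, which rests on the EtOH libraries with adrenal transcripts, 2 of 21 genes of vasopressin signalling, 1 of 16 osmolyte genes, 1 of 15 countercurrent and urea genes and 0 of 5 other aquaporins passed, against 9.12% of all genes. These were Edn1 at 2.71 ± 0.68, Ptger4 at 1.10 ± 0.26, Aldh7a1 at -1.14 ± 0.24 and Arg2 at 1.92 ± 0.50 on the log2 scale (SE, edgeR). With the adrenal covariate the interaction calls over all genes numbered 6 in place of 1468.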
